A study of Saccharomyces cerevisiae with 18 samples.

Results

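Genes on the right arm of yeast chromosome VII are named in order, and the block described here holds every row of the deposited count table whose name runs from YGR100 to YGR140, on either strand and with or without a suffix. This gave 45 of the 7127 gene rows, of which 39 have an entry in the RefSeq annotation of the R64 assembly and 41 had enough reads to be tested among 5757 genes. The members were chosen by their read counts in the snf2 libraries against those of wt and snf5, since neighbours of SPT6 and NUP57 stood about 2-fold higher in snf2 only. The comparisons of snf2 with wt and with snf5 are therefore given as a description of the members, with no test. The values of snf5 against wt are not independent evidence either.

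Within the block, a run of 14 neighbouring tested genes, from YGR109W-B to YGR122C-A, was higher in snf2 cells in both media. YGR109W-B holds the gag and pol genes of a Ty3 retrotransposon. RPS23A, inside the run, was under the 1.5-fold limit that defined it, at 1.41-fold in YPD and 1.35-fold in YPD+Cys against wt. The run included SPT6 (1.67-fold in YPD and 1.70-fold in YPD+Cys against wt) and NUP57 (1.77-fold and 1.78-fold). The median gene of the run stood 2.17-fold above wt in YPD and 2.10-fold above it in YPD+Cys. Against snf5, the other Swi-Snf mutant, it stood 1.93-fold and 2.03-fold higher. Just outside the run, PPT1 on the right was lower in snf2 cells than in wt. CLB6 on the left had at most 30 counts in a library, so its change was uncertain. Its log2 fold change against wt was 0.10 in YPD (standard error 0.40) and -0.31 in YPD+Cys (standard error 0.37). As the libraries are of bulk RNA, more RNA per cell and a larger share of cells with more of it cannot be told apart.

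All cells derived from BY4741, a MATa laboratory strain of Saccharomyces cerevisiae with deletions in HIS3, LEU2, URA3 and MET17. The 6 groups were wt, snf2 and snf5 cells in YPD, a rich medium, and the same strains kept for 30 min in YPD with 3 mM cysteine, written YPD+Cys. Each group had 3 libraries of ribosome-depleted total RNA. The strain list of the study holds snf2 and snf5 mutants from the yeast deletion collection, in which a KanMX4 cassette replaces the gene, and further mutants made for the study. The sources used here do not say which of them gave these libraries, nor whether all libraries of a genotype came from 1 strain. The sources used here do not say whether replicates were separate cultures, and p-values measure the spread between these libraries only.

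Snf2 is the catalytic ATPase of the Swi-Snf chromatin remodelling complex, and Snf5 is another of its subunits. Spt6 is a histone chaperone that travels with RNA polymerase II and rebuilds nucleosomes behind it. Its gene is also known as SSN20, because mutations in it were found as suppressors of the growth defects of snf2 mutants. Nup57 is a nucleoporin of the central channel of the nuclear pore. Ty3 is a retrotransposon that inserts next to the start sites of tRNA genes, and its copies are bounded by direct long terminal repeats (LTRs).

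The run starts within a Ty3 element and ends before a solo Ty3 LTR, both on the plus strand. In R64 coordinates, the Ty3 element YGRWTy3-1 takes up VII:707195-712545, and its LTRs at VII:707195-707534 and VII:712206-712545 are identical over 340 bases. A solo Ty3 LTR of 341 bases lies at VII:735982-736322, where it shares 335 bases with either of them, with 5 mismatches and 1 gap (98.2% identity). The longest identical stretch was 201 bases. The Ty3 element starts 15 bases from the tRNA-Cys gene at VII:707108-707179, and the solo LTR ends 17 bases before the tRNA-Arg gene at VII:736340-736411. The first 140 columns of the alignment of the second LTR of the element with the solo LTR are shown to compare the repeats of the element with the solo LTR past the right end of the run. The second LTR lies inside the run, over the end of YGR109W-B, and has the same bases as the first, which lies before that gene at the left end. Capitals mark the bases at which the printed sequences differ.
Ty3 element, second LTR, VII:712206-712344, plus strand: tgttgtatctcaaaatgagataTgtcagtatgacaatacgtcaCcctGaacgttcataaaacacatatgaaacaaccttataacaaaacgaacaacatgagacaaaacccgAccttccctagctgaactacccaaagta
Solo Ty3 LTR, VII:735982-736121, plus strand: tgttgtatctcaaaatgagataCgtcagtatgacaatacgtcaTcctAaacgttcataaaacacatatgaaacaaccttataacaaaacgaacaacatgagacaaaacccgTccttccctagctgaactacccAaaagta

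Ty1 LTRs on the plus strand, at VII:701104-701350 and VII:735542-735872, also lie on either side of SPT6 and were not compared. The annotation holds 42 Ty3 LTRs, of which 6 pairs lie 10 to 50 kb apart on a chromosome. Of these pairs, 4 were on the same strand and 2 were at least 95% identical, and both of the latter were the pairs on either side of SPT6. These 2 pairs set the same solo LTR against the 2 identical LTRs of the same Ty3 element. The limits of distance and identity were chosen with the place of the run known, so nothing is read from this count. By gene counts, the left end of the run lies somewhere from the end of CLB6 (VII:706501) to within YGR109W-B (VII:707610-712254). The Ty3 element that holds YGR109W-B starts 693 bases after CLB6, and the counts do not place the end more closely. By the same counts, the right end falls between YGR122C-A, whose open reading frame ends 223 bases before the solo LTR, and PPT1, which starts 339 bases after it. The place of YGR122C-A in the run depends on how reads were assigned. Without YGR122C-A, the right end lies anywhere from the end of YGR122W (VII:735143) to PPT1. From the first base of YGR109W-B to the last of YGR122C-A the run covers 28149 bases. The deposited tables hold RNA only, so the number of DNA copies of the run in each strain was not tested.

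The deleted genes were low in the libraries labelled for them. SNF2 was at 1.23 to 5.22 CPM (a counts-per-million scale, the share of a gene among the reads in genes after TMM scaling) in the snf2 libraries, against 157 to 253 in the other libraries. SNF5 was at 0 to 0.274 CPM in the snf5 libraries and at 45.5 to 61.6 CPM elsewhere. LEU2, URA3 and MET17 had no counts in any library, whereas HIS3 had 14.1 to 32.0 CPM. Of the genes specific to a cells, STE2 had at least 136 CPM, and STE2, STE6, MFA1, MFA2 and BAR1 were lower in every mutant library than in any wt library. Of the genes specific to α cells, the pheromone genes MFALPHA1 and MFALPHA2 had at most 0.821 CPM and SAG1 had 15.3 to 24.3 CPM. STE3 had 6.50 to 12.3 CPM in snf2, 1.09 to 4.89 CPM in wt and 4.31 to 5.81 CPM in snf5. The part of these differences in the values of the block was not tested. The libraries held 1329986 to 4845830 counts in genes. In 3 libraries, snf2 YPD replicates 2 and 3 and snf5 YPD replicate 3, reads that align to several places made up 44.6% to 71.4% of the total, and in the rest they made up at most 28.6%. Without these 3 libraries the run again held 14 genes, with a median log2 fold change of 1.20 against wt in YPD.

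SPT6 (VII:720409-724764, plus strand) had 323, 283 and 343 CPM in the wt YPD libraries and 504, 526 and 550 CPM in the snf2 YPD libraries. In snf5 YPD it had 260, 288 and 268 CPM. With cysteine the values were 287, 304 and 342 CPM in wt, 508, 537 and 546 CPM in snf2, and 285, 295 and 278 CPM in snf5. The lowest of the 6 snf2 libraries thus stood above the highest of the 12 others, and the wt and snf5 libraries overlapped. The log2 fold change of snf2 against wt was 0.74 ± 0.10 (SE) in YPD and 0.77 ± 0.10 in YPD+Cys, and that of snf2 against snf5 was 0.95 ± 0.10 and 0.89 ± 0.10.

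NUP57 (VII:728046-729671, minus strand) had 89.6, 80.8 and 92.4 CPM in wt YPD, 159, 141 and 164 CPM in snf2 YPD, and 69.0, 72.7 and 74.7 CPM in snf5 YPD. In YPD+Cys it had 83.7, 88.3 and 88.2 CPM in wt, 151, 144 and 168 CPM in snf2, and 68.3, 78.8 and 81.2 CPM in snf5. Here too all snf2 libraries lay above all others. Its log2 fold change against wt was 0.82 ± 0.10 in YPD and 0.83 ± 0.10 in YPD+Cys, and against snf5 it was 1.10 ± 0.10 and 1.02 ± 0.10.

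**Figure D1:**
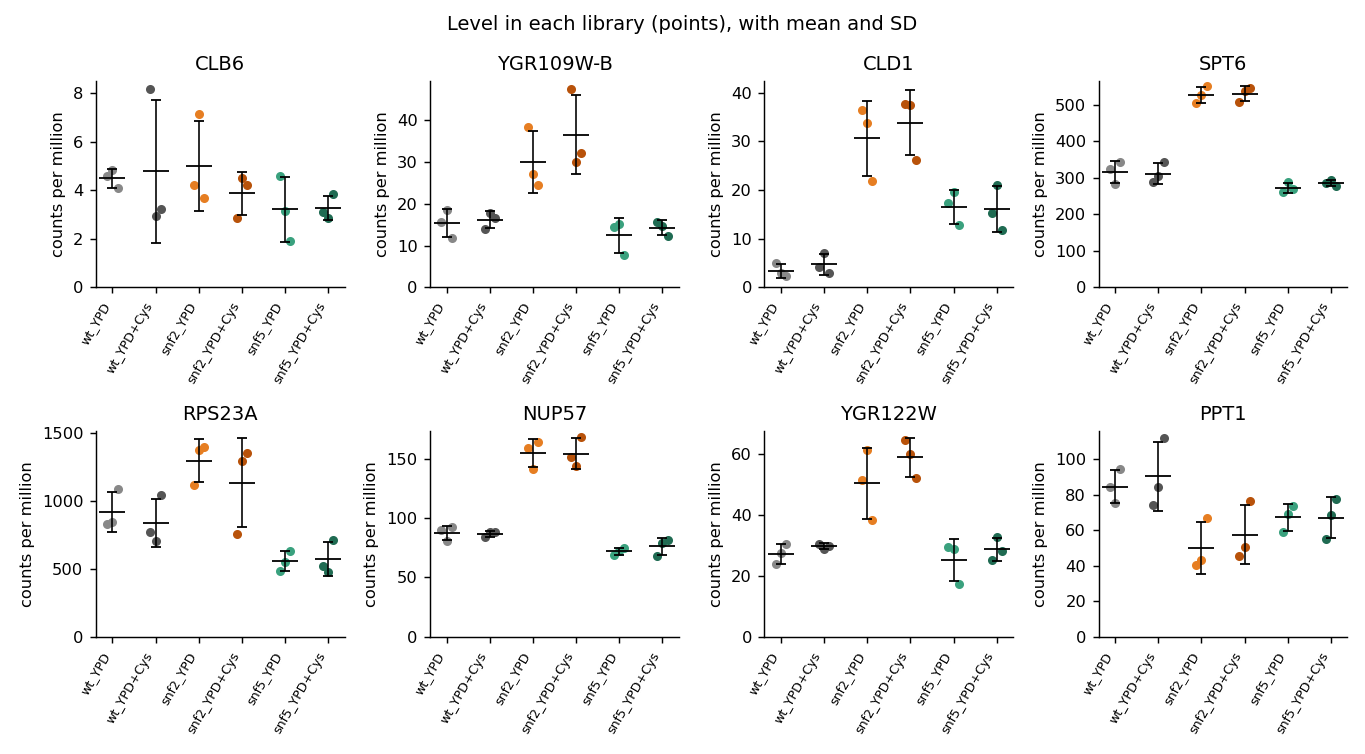
Level of 8 members of the block in each library, in CPM, by strain and medium; points are the 3 libraries of a group and bars the mean and SD. CLB6 and PPT1 lie just outside the run, and the 6 genes between them belong to it: the 6 snf2 libraries lie above the 12 others for each of those except RPS23A.

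At the left end, YGR109W-B (VII:707610-712254) had 15.6, 18.5 and 11.8 CPM in wt YPD and 38.4, 27.0 and 24.6 CPM in snf2 YPD. In snf5 YPD it had 14.6, 15.3 and 7.66 CPM. The snf2 libraries did not overlap with the others, and in YPD+Cys they reached 47.4, 30.0 and 32.2 CPM against at most 17.9 CPM in wt. The log2 fold change of snf2 against wt was 0.98 ± 0.25 in YPD and 1.18 ± 0.23 in YPD+Cys. The genome holds another nearly identical Ty3 element, with the gene YIL082W-A on chromosome IX, and reads that fit both were not counted for either. In the same fit YIL082W-A changed by 0.13 ± 0.28 in YPD (edgeR adjusted p = 0.783) and by -0.04 ± 0.26 in YPD+Cys (adjusted p = 0.937).

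The 2 tested genes before the run were cyclins. CLB6, an S-phase cyclin (VII:705359-706501), had 4.56, 4.84 and 4.07 CPM in wt YPD and 4.19, 7.12 and 3.69 CPM in snf2 YPD, with 4.58, 3.15 and 1.92 CPM in snf5 YPD. In YPD+Cys it had 8.17, 2.93 and 3.23 CPM in wt, 2.87, 4.50 and 4.22 CPM in snf2, and 3.09, 2.86 and 3.84 CPM in snf5. The groups overlapped throughout, and the log2 fold change of snf2 against wt was 0.10 ± 0.40 in YPD and -0.31 ± 0.37 in YPD+Cys. CLB1, a mitotic cyclin, had 52.8, 44.4 and 77.3 CPM in wt YPD, 24.2, 28.9 and 33.2 CPM in snf2 YPD and 18.6, 17.7 and 26.8 CPM in snf5 YPD. It was thus lower in every library of both mutants than in wt, with values of 42.0, 36.7 and 61.6 CPM in wt, 26.5, 29.5 and 27.2 CPM in snf2 and 20.8, 16.6 and 26.6 CPM in snf5 with cysteine.

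At the right end the values were less certain. YGR122W (VII:733935-735143) had 23.8, 27.6 and 30.3 CPM in wt YPD and 51.5, 61.2 and 38.2 CPM in snf2 YPD, and its log2 fold change was 0.88 ± 0.19 in YPD and 0.98 ± 0.18 in YPD+Cys. YGR122C-A, the last gene, has no RefSeq entry. An open reading frame of its length was found at VII:735630-735758, within a Ty1 LTR that lies at VII:735542-735872. It had 1.303, 3.13 and 1.85 CPM in wt YPD, 10.01, 8.54 and 6.98 CPM in snf2 YPD and 1.62, 3.15 and 3.83 CPM in snf5 YPD. In YPD+Cys it had 1.63, 2.64 and 0.807 CPM in wt, 8.39, 11.8 and 8.24 CPM in snf2, and 5.90, 3.68 and 4.11 CPM in snf5. The snf2 libraries lay above the others in both media. Its counts reached 47 in a library, but the expected counts that RSEM assigned to it reached 2, so its place in the run depends on how reads were assigned. With RSEM's TPM values (a transcripts-per-million scale that corrects for gene length) the run held 13 genes and ended at YGR122W.

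The first genes after the run were lower in snf2 cells than in wt. PPT1, a protein phosphatase that acts on Hsp90 (VII:736662-738203), had 84.0, 75.4 and 94.3 CPM in wt YPD, 40.3, 43.2 and 66.9 CPM in snf2 YPD and 59.0, 69.3 and 73.4 CPM in snf5 YPD. The YPD+Cys values were 74.1, 84.5 and 112 CPM in wt, 45.5, 50.8 and 76.3 CPM in snf2, and 54.8, 68.7 and 77.6 CPM in snf5. Every snf2 library was below every wt library in YPD, and in YPD+Cys 1 snf2 library (76.3 CPM) was above the lowest wt library (74.1 CPM). ASN2, an asparagine synthetase, had 455, 308 and 474 CPM in wt YPD, 210, 299 and 291 CPM in snf2 YPD and 280, 325 and 346 CPM in snf5 YPD. With cysteine it had 342, 280 and 373 CPM in wt, 217, 266 and 281 CPM in snf2, and 255, 317 and 273 CPM in snf5. Across the run boundary, from YGR122W to PPT1, the log2 fold change of snf2 against wt in YPD went from 0.88 ± 0.19 to -0.76 ± 0.23.

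**Figure D2:**
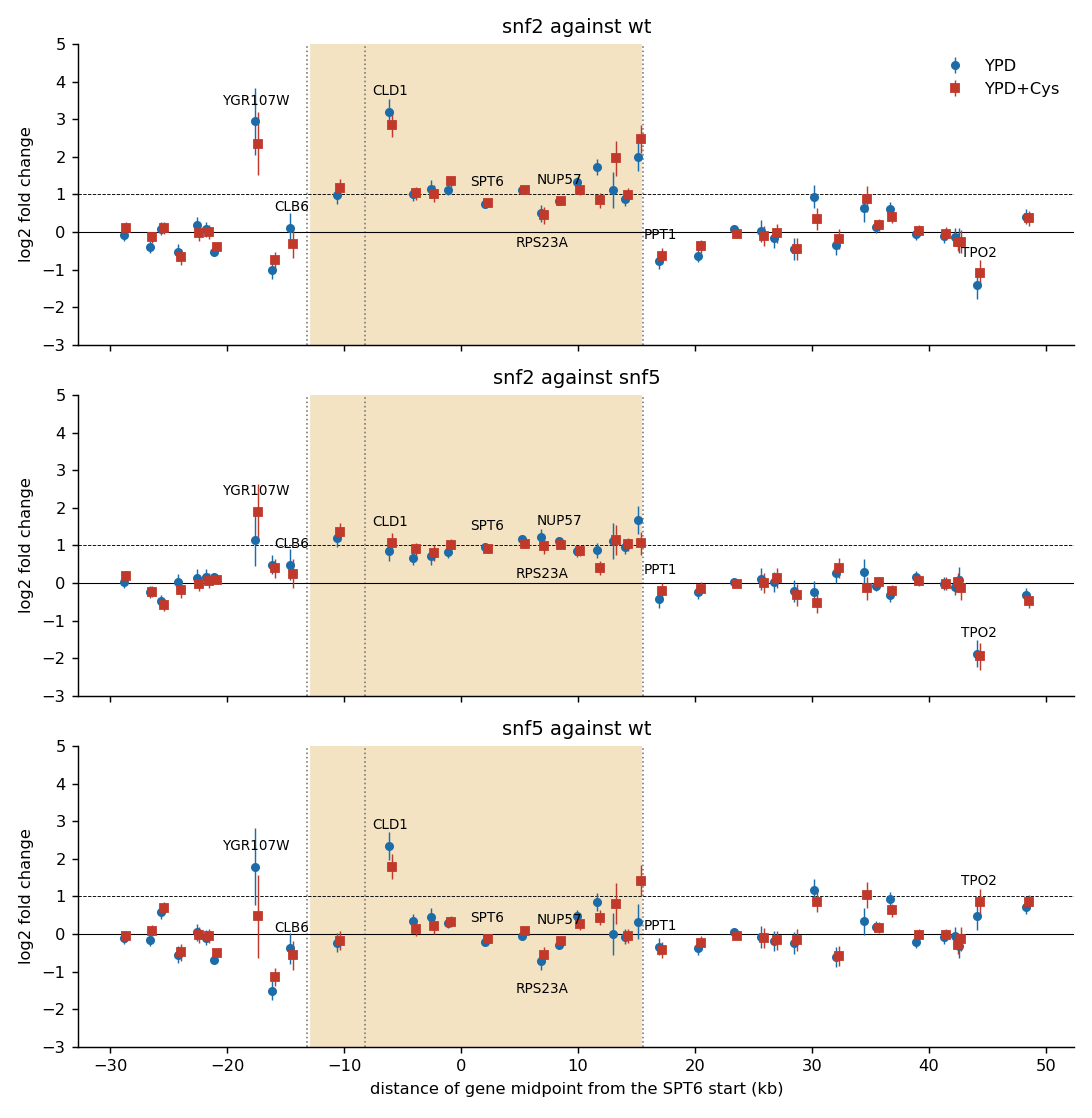
Log2 fold change of each of the 41 tested members (vertical axis, with SE bars) against the distance of its midpoint from the SPT6 start in kb (horizontal axis), for snf2 against wt, snf2 against snf5 and snf5 against wt, in YPD (blue circles) and YPD+Cys (red squares). The shaded band is the 14-gene run, dotted lines are the starts of the Ty3 LTRs, and the dashed line is a 2-fold difference. In the band the values of snf2 against snf5 lie between 0.41 and 1.67. Those of snf5 against wt run from -0.73 to 2.34 in YPD (median 0.15) and from -0.55 to 1.79 in YPD+Cys (median 0.18), with CLD1 the highest in both.

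The largest change in the run was that of CLD1, a cardiolipin-specific phospholipase of mitochondria. It had 4.89, 2.85 and 2.22 CPM in wt YPD, 36.3, 33.7 and 21.8 CPM in snf2 YPD and 17.3, 19.6 and 12.8 CPM in snf5 YPD. In YPD+Cys it had 4.09, 7.04 and 2.96 CPM in wt, 37.7, 37.5 and 26.1 CPM in snf2, and 15.2, 21.1 and 11.8 CPM in snf5. CLD1 was therefore high in both mutants and highest in snf2, with no overlap of the 3 strains. Its log2 fold change of snf2 against wt was 3.20 ± 0.35 in YPD and 2.85 ± 0.32 in YPD+Cys, but against snf5 it was 0.85 ± 0.28 and 1.06 ± 0.27, close to the rest of the run.

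The smallest change was that of RPS23A, a gene for protein S23 of the small ribosomal subunit. It had 831, 845 and 1091 CPM in wt YPD, 1118, 1378 and 1400 CPM in snf2 YPD, and 488, 552 and 633 CPM in snf5 YPD. With cysteine it had 772, 704 and 1043 CPM in wt, 757, 1299 and 1356 CPM in snf2, and 525, 476 and 716 CPM in snf5. All snf2 libraries were above wt in YPD, but snf2 YPD+Cys replicate 1 fell within the wt range. The log2 fold change against wt was 0.49 ± 0.22 in YPD and 0.44 ± 0.22 in YPD+Cys, and against snf5 it was 1.22 ± 0.22 and 0.99 ± 0.22. RPS23A is thus the 1 gene of the run under the 1.5-fold limit against wt.

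Ribosomal protein genes as a whole were low in the mutants. The median log2 fold change of the 138 tested was -0.77 for snf2 against wt in YPD and -0.65 in YPD+Cys, and RPS23A had the highest value of all of them in both media. Its partner RPS23B on chromosome XVI encodes the same protein, and changed by -0.47 ± 0.23 in snf2 YPD (edgeR adjusted p = 0.176) and -0.29 ± 0.23 in snf2 YPD+Cys (adjusted p = 0.444). Within each library, the ratio of RPS23A to RPS23B counts does not depend on scaling. It was 0.664 ± 0.037 in wt YPD, 1.29 ± 0.02 in snf2 YPD and 0.690 ± 0.011 in snf5 YPD (mean ± SD, n = 3). In YPD+Cys it was 0.764 ± 0.018, 1.25 ± 0.06 and 0.686 ± 0.043 respectively. The 6 snf2 ratios lay between 1.20 and 1.31 and the 12 others between 0.637 and 0.774. RSEM's expected counts gave 1.18 to 1.36 in snf2 and 0.611 to 0.783 in the others. The same ratio for the Ty3 genes, YGR109W-B to YIL082W-A, was 1.63 ± 0.13 in snf2 YPD and 1.87 ± 0.30 in snf2 YPD+Cys, against 0.919 ± 0.158 and 0.876 ± 0.373 in wt and 1.02 ± 0.37 and 1.16 ± 0.05 in snf5. The lowest snf2 library was at 1.5 and the highest of the others, in snf5 YPD, at 1.40. Some of the reads of either pair fit both copies, and both ratios were chosen after the values of the run were seen.

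**Figure D3:**
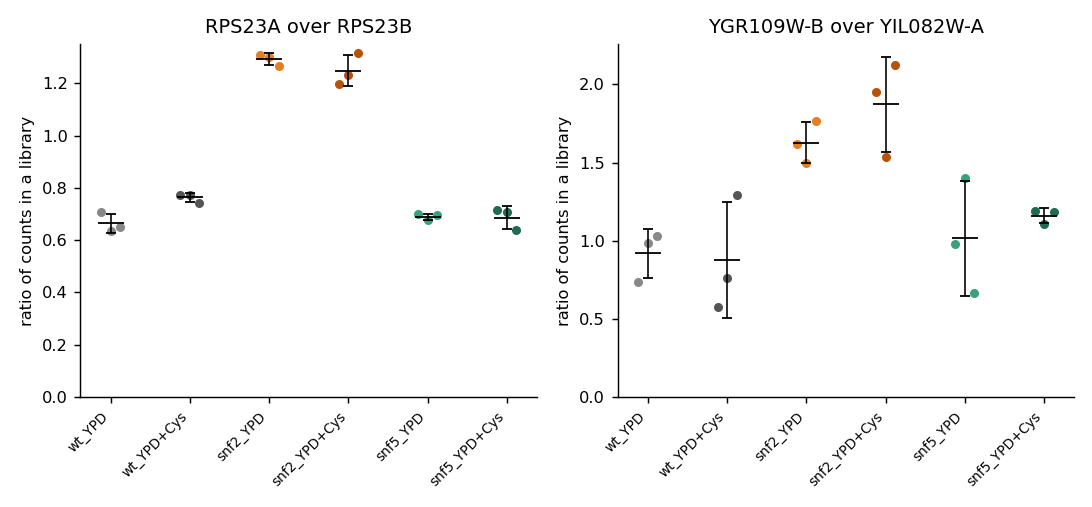
Ratio of the counts of RPS23A to those of RPS23B (left) and of YGR109W-B to those of YIL082W-A (right) in each library; points are libraries, bars the mean and SD of 3. The copy inside the run is the numerator, and the snf2 libraries, at 1.20 to 1.31 on the left, lie above all others in both panels.

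The other genes of the run have unrelated roles. SHY1, an assembly factor of cytochrome c oxidase, had log2 fold changes of 1.15 ± 0.24 in YPD and 1.02 ± 0.22 in YPD+Cys for snf2 against wt. DAM1, a kinetochore protein that couples chromosomes to microtubules, had 1.12 ± 0.14 and 1.35 ± 0.14. COG2, a subunit of a Golgi tethering complex, had 1.32 ± 0.15 and 1.12 ± 0.14. MEP1, an ammonium permease, had 1.72 ± 0.22 in YPD and 0.84 ± 0.19 in YPD+Cys. YGR111W and YGR117C, open reading frames without a standard gene name, lay between 1.00 and 1.12 in both media. YGR121W-A, which had at most 18 counts in a library, was at 1.13 ± 0.48 and 1.96 ± 0.46.

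Levels within the run spanned a wide range in wt cells. Per length, in the deposited TPM values, RPS23A stood at 528 TPM in wt YPD, SPT6 at 18.5 TPM and NUP57 at 13.1 TPM. The TPM of CLD1 was 0.607, and the remaining genes lay between CLD1 and YGR117C, which had 7.17 TPM. The shift in snf2 thus took in a ribosomal protein gene, a retrotransposon and weakly expressed genes alike.

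The size of the shift varied less when the other mutant was the reference. Over the 14 genes the log2 fold change of snf2 against wt had an SD of 0.67 in YPD and 0.68 in YPD+Cys, whereas that of snf2 against snf5 had an SD of 0.26 and 0.21. The corresponding SDs over all 5757 genes were 0.66, 0.66, 0.44 and 0.42. The values of the run against wt include CLD1, at 3.20 in YPD and 2.85 in YPD+Cys, which was also high in snf5. They also include YGR122C-A, a gene of few counts, at 2.00 and 2.47. In snf2 against snf5 the 14 values ran from 0.66 to 1.67 in YPD and from 0.41 to 1.35 in YPD+Cys, and the lowest in YPD+Cys was MEP1. These comparisons share the snf2 libraries.

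Of the 14 genes, 13 passed the limit of 1.5-fold (0.58 on the log2 scale) against wt in both media, a limit that 10.1% of all genes passed in YPD and 9.15% in YPD+Cys. The limit defined the run, and these counts only describe it. The members just inside it were SPT6 at 0.74 in YPD and 0.77 in YPD+Cys and NUP57 at 0.82 and 0.83, and RPS23A at 0.49 and 0.44 lay just outside it. All snf2 libraries were above all wt libraries for 14 genes of the run in YPD (15.4% of all genes) and for 13 in YPD+Cys (15.8%). All 6 snf2 libraries exceeded all 12 others for 11 genes of the run, for none of the 27 other tested members and for 36 of all 5757 genes (0.625%). The exceptions in the run were SHY1, RPS23A and MEP1. By edgeR, 20 of the 41 members were called against wt in YPD, where 19.7% of all genes were, and 18 in YPD+Cys, where 19.3% were. Against snf5 there were 11 in each medium, where 2.99% and 2.54% of all genes were called. As the choice of members used these contrasts, nothing is read from those shares.

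Per library, the median of the run relative to the wt mean of the same medium was 0.97 to 1.17 on the log2 scale in snf2 YPD and 1.02 to 1.14 in snf2 YPD+Cys. It was -0.12 to 0.03 in wt YPD, -0.05 to 0.02 in wt YPD+Cys, -0.08 to 0.17 in snf5 YPD and 0.04 to 0.23 in snf5 YPD+Cys. All 6 snf2 libraries were thus shifted by a similar amount, including the 2 with many multimapping reads. The 15 tested genes before the run had medians of -0.10 to 0.08 in the snf2 libraries, and the 15 after it had medians of -0.21 to 0.07.

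**Figure D4:**
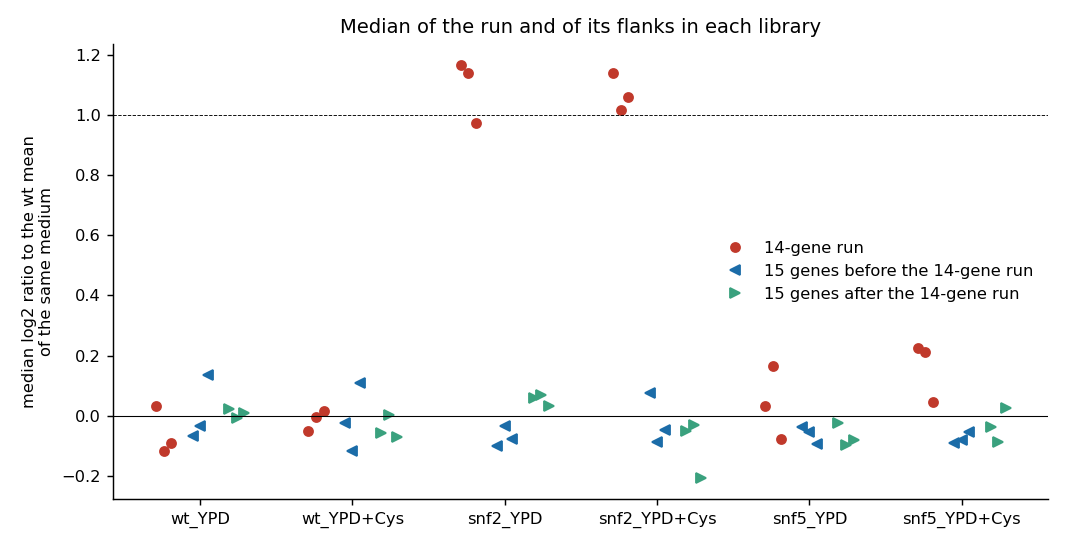
Median log2 ratio of the 14 genes of the run (red circles), the 15 genes before it (blue) and the 15 genes after it (green) to the wt mean of the same medium, for each of the 18 libraries; the dashed line marks a 2-fold ratio. The run lies between 0.97 and 1.17 in the 6 snf2 libraries and the flanks lie near 0.

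Windows of 14 neighbouring tested genes were moved along all 16 chromosomes to describe how the run compares with other stretches of the genome. Of 5284 windows that held no gene of the run, none had a median log2 fold change as high as the run in any of the 4 comparisons of snf2. For snf2 against wt in YPD, the run was at 1.11, and the highest of those windows, from DAL1 to YIR042C on chromosome IX, was at 0.68. In YPD+Cys the run was at 1.07 and the highest window, YEL077C to CIN8 on chromosome V, at 0.62. For snf2 against snf5 the run was at 0.95 in YPD and 1.02 in YPD+Cys, and the highest window in both, KIN82 to AAD3 on chromosome III, was at 0.68 and 0.69. The lowest gene of the run was at 0.49 against wt in YPD, whereas every window elsewhere held a gene at -0.027 or lower. The run was built from genes high in snf2, so its median and lowest gene are high by construction. Its place among the windows is only a description. In snf5 against wt, the medians of the run were 0.15 and 0.18, and 781 and 419 of the other windows were as high or higher.

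**Figure D5:**
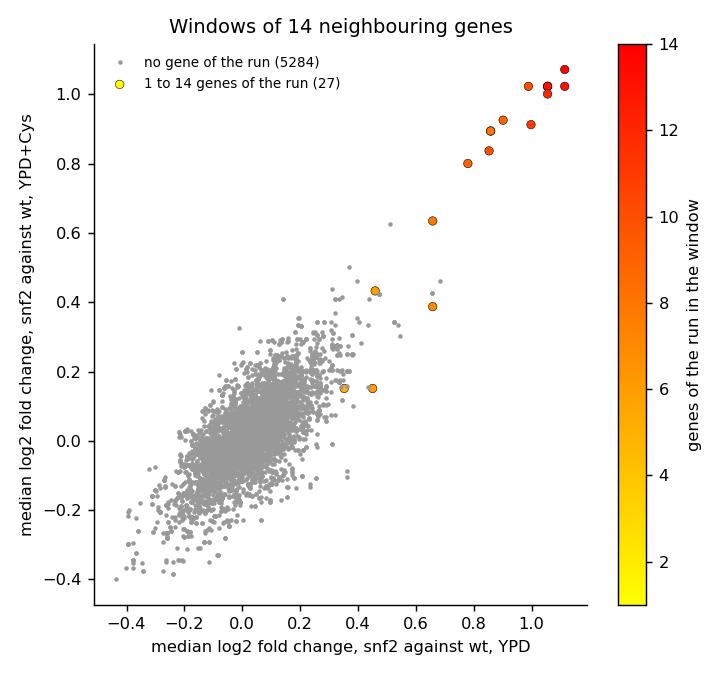
Median log2 fold change of snf2 against wt over windows of 14 neighbouring tested genes, in YPD (horizontal axis) and in YPD+Cys (vertical axis). Grey points are the 5284 windows without a gene of the run and coloured points the 27 windows that share 1 to 14 genes with it. Windows with most of the run lie apart, near 1 on both axes, and the run was defined by its values in this contrast.

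The 27 tested members outside the run had a median log2 fold change of snf2 against wt of -0.08 in YPD and -0.06 in YPD+Cys, against 0.02 over all genes in either medium. They ran from -1.41 (TPO2) to 2.94 (YGR107W) in YPD and from -1.10 to 2.35, of the same genes, in YPD+Cys. VOA1, an assembly factor of the vacuolar proton pump, was at -0.53 ± 0.11 and -0.41 ± 0.11, and the ribosome biogenesis gene NOP7 at -0.53 ± 0.22 and -0.67 ± 0.22. The prohibitin gene PHB1, the deadenylase subunit CAF130 and the Mediator subunit SRB5 lay between -0.06 and 0.19 in both media. As this contrast chose the members, these values are a description.

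YGR107W, an open reading frame without a RefSeq entry that lies to the left of CLB1, was high in snf2 cells at very low counts, with 7 to 14 counts in a snf2 library against 1 or 2 in wt. Its log2 fold change against wt was 2.94 ± 0.88 in YPD and 2.35 ± 0.83 in YPD+Cys. It was not consistently low in snf5, where YPD replicate 3 had 4.47 CPM. TPO2, a polyamine exporter, went the other way. It had 167, 196 and 257 CPM in wt YPD, 101, 54.6 and 76.3 CPM in snf2 YPD and 323, 298 and 236 CPM in snf5 YPD. In YPD every snf2 library was thus below every wt and snf5 library for TPO2, and the wt and snf5 libraries overlapped. Its log2 fold change of snf2 against snf5 was -1.88 ± 0.37 in YPD and -1.95 ± 0.36 in YPD+Cys.

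In snf5 cells the block was not raised as a whole. By edgeR's quasi-likelihood test, 10 of 41 members were called against wt in YPD, where 27.0% of all genes were called, and 9 in YPD+Cys, where 21.1% were. In the run, CLD1 rose by 2.34 ± 0.37 on the log2 scale in YPD (adjusted p = 2.03e-04) and by 1.79 ± 0.33 in YPD+Cys (adjusted p = 0.00100). MEP1 rose by 0.85 ± 0.23 in YPD (adjusted p = 0.0111) and COG2 by 0.48 ± 0.15 (adjusted p = 0.0299). RPS23A fell by 0.73 in YPD (SE 0.22, adjusted p = 0.0219). YGR122C-A was called higher in YPD+Cys only, at 1.41 ± 0.41 (adjusted p = 0.0206). The values of SPT6 were -0.21 ± 0.10 (adjusted p = 0.136) in YPD and -0.12 ± 0.10 (adjusted p = 0.438) in YPD+Cys, and those of NUP57 were -0.28 ± 0.10 (adjusted p = 0.0537) and -0.19 ± 0.10 (adjusted p = 0.210).

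Outside the run, GTF1, PEX4, SYF2 and CBF2 were called higher in snf5 in both media. GTF1 is part of a mitochondrial amidotransferase that makes glutaminyl-tRNA, and changed by 0.57 in YPD and 0.69 in YPD+Cys. The peroxisomal ubiquitin-conjugating enzyme PEX4 changed by 0.93 and 0.63, the splicing factor SYF2 by 1.17 and 0.86, and the kinetochore protein CBF2 by 0.72 and 0.85. FHN1, a plasma membrane protein, was called higher in YPD+Cys, at 1.03 ± 0.35. CLB1 fell by 1.51 in YPD and by 1.14 in YPD+Cys, and VOA1 fell by 0.68 and 0.50. On the TPM scale, where the median of all genes itself moved, the value of VOA1 in YPD+Cys was positive (0.31).

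Few genes were called with cysteine in the main fit, which does not pair the YPD and YPD+Cys libraries. By edgeR, 0.434%, 0.643% and 0.903% of all genes were called in wt, snf2 and snf5 cells. For the difference between the responses of snf2 and wt the share was 0.0869%. No member was called in any of these comparisons, and at such shares this does not set the block apart from other genes. At an unadjusted p under 0.05 there were 1, 0, 0 and 1 of the 41 members, and in both cases that member was MEP1. Of all 5757 genes, 353, 260, 241 and 115 were under that limit in the same comparisons. DESeq2 and limma on TPM called no member either. MEP1 had 10.4, 7.12 and 8.13 CPM in wt YPD and 18.8, 13.2 and 13.98 CPM in wt YPD+Cys. In snf2 it had 29.1, 27.5 and 27.9 CPM in YPD and 19.4, 29.8 and 33.3 CPM in YPD+Cys, and in snf5 it had 15.1, 14.5 and 17.2 CPM and then 22.8, 21.3 and 18.1 CPM. The wt libraries did not overlap between media, and the snf2 libraries did. The change in wt was 0.84 ± 0.22 (adjusted p = 0.186), and the response of snf2 differed from it by -0.88 ± 0.29 (adjusted p = 1.0).

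Within a strain, YPD and YPD+Cys libraries of the same number deviated together, and a fit with the replicate number as a block within each strain called more genes. In wt it called 3 of the 41 members, where 6.22% of all genes were called. These were MEP1 (0.84 ± 0.21, adjusted p = 0.0224), ASN2 (-0.30 ± 0.08, adjusted p = 0.0246) and PRE9, a subunit of the 20S proteasome (-0.27 ± 0.08, adjusted p = 0.0402). In snf2 it called NOP7, a ribosome biogenesis factor (-0.32 ± 0.07, adjusted p = 0.00958), where 5.19% of all genes were called. In snf5 it called none, where 3.6% of all genes were called. The difference between the MEP1 responses of snf2 and wt was not called in this fit. Neither SPT6 nor NUP57 was called, and their log2 changes with cysteine lay between -0.02 and 0.08 in all strains.

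Spt6 works with elongation factors and histone chaperones. Of 24 genes for such partners, 1 was called higher and none lower for snf2 against wt in YPD, where 7.89% of all genes were called higher and 11.8% lower. In YPD+Cys none was called higher and 1 lower, where 7.73% and 11.6% of all genes were. Their median log2 fold changes were 0.05 and -0.01, beside 0.02 over all genes in either medium. The gene called higher was the histone chaperone ASF1 (0.96 ± 0.30, adjusted p = 0.0292), and the gene called lower was SPT5, an elongation factor that binds RNA polymerase II (-0.29 ± 0.09, adjusted p = 0.0254). In snf5 against wt ASF1 was at 1.25 ± 0.29 in YPD and 0.88 ± 0.27 in YPD+Cys, and BUR2, a cyclin that promotes elongation, at 0.78 ± 0.27 in YPD. These 3 values were called (adjusted p = 0.00421, 0.0258 and 0.0411).

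The list of nucleoporins held 24 names for 23 genes, since ASM4 and NUP59 name the same gene. For snf2 against wt, none was called higher, and 2 were called lower in YPD and 1 in YPD+Cys, beside 11.8% and 11.6% of all genes. Their medians were -0.11 and -0.09. POM152, a membrane nucleoporin, was at -0.35 ± 0.10 in YPD and -0.31 ± 0.10 in YPD+Cys, and NUP192 at -0.29 ± 0.10 in YPD. In snf5 against wt, 5 of the 23 were called lower in YPD and 3 in YPD+Cys, where 865 and 652 of all 5757 genes were. The largest of these changes were those of ASM4 in YPD (-0.42 ± 0.11) and POM152 in YPD+Cys (-0.39 ± 0.10). No gene of either list was called for snf2 against snf5, where 2.99% of all genes were called in YPD and 2.54% in YPD+Cys, and nothing about the lists is read from that.

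The 4 members that were not tested lacked reads. YGR109W-A, which lies within the Ty3 element and shares its first base with YGR109W-B, and YGR114C, which overlaps the start of SPT6 on the other strand, had 0 counts in all libraries. YGR115C, which also overlaps SPT6, had 9 counts over 18 libraries, and YGR139W had 15. Reads that fit more than one gene were not counted here, and the sources do not say whether strand was used, so such overlapping genes cannot be told from their neighbours.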

How the data were processed

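Ribosome-depleted total RNA was sequenced from 18 libraries, 3 for each of 6 groups. The authors' notes name bcl2fastq 2.18 for demultiplexing, STAR 2.7.3a for alignment to sacCer3 and RSEM 1.3.0. The authors deposited 1 table of unnormalized read counts per gene. Its lines that name no gene, which made up 14.4% to 78.2% of each library, were dropped. For each library the authors deposited RSEM's TPM values, which are scaled by length to a fixed sum. The RSEM expected counts beside them, also deposited by the authors, share out multimapping reads and were rounded here.

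The 5757 genes kept by filterByExpr (minimum count 10) were scaled by TMM, and all 18 libraries were fitted with 1 mean per group in edgeR 4.0.16 under R 4.3.3. The quasi-likelihood test had 12 residual degrees of freedom and p-values were adjusted by Benjamini-Hochberg over all genes, with calls at 0.05. Levels are CPM with TMM scaling. limma 3.58.1 on log2(TPM + 1) or log2(TPM + 0.1) and DESeq2 1.42.0 were alternatives.

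Starting from SPT6, the run was extended over tested neighbours of log2 fold change 0.58 or more in both media until 2 in a row fell short. Members without a RefSeq entry were placed by the only open reading frame of their length near their neighbours. Repeats and sequences are from RefSeq R64, the assembly also called sacCer3. Genes given per library were SPT6, NUP57, RPS23A, the ends of the run with 2 genes beyond each, and its highest and lowest gene. Members called in snf5 or with cysteine and called partner genes were given in brief. TPO2, YGR107W, NOP7, PHB1, CAF130, SRB5, YIL082W-A and RPS23B were singled out after their values were seen. The members and lists were chosen with earlier results of these data known. Same-numbered YPD and YPD+Cys libraries were taken as pairs because in each strain all 3 correlations of their deviations from the group means were over 0.1 (0.22 to 0.784). Between strains this did not hold for all pairs.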

Additional observations from a re-analysis of the deposited data

Results flagged for a closer look

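FHN1, a plasma membrane protein of the block outside the run, went down with cysteine in all 3 pairs of wt libraries, by a mean of -0.325 on the log2 scale, and up in all 3 pairs of snf5 libraries, by a mean of 0.234 (CPM with 0.5 added). The difference between the responses was not tested, and FHN1 had at most 29 counts in a library.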

How the results depend on the processing

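The median log2 fold change of the run was positive in the 4 comparisons of snf2 under every alternative tried. The run was built from genes high in snf2 in these same libraries, so that sign was largely set in advance. With library totals in place of TMM it was 1.36 against wt in YPD, 1.23 in YPD+Cys and 0.94 against snf5 in YPD+Cys. On log2(TPM + 1) it was 1.34 against wt in YPD+Cys, and 0.59 and 0.66 against snf5 in YPD and YPD+Cys. On log2(TPM + 0.1) the same values were 1.53, 0.64 and 0.69. RSEM expected counts gave 1.00 against wt in YPD+Cys, over 12 tested genes. Those scalings moved the median of all genes, by up to 0.73 on log2(TPM + 1) and 0.34 with library totals (both snf5 against wt), and relative to it the run stood at 0.82 to 0.95 and at 0.95 to 1.10 in the comparisons of snf2. Without 1 library each, it ranged from 0.99 to 1.19 against wt in YPD, 1.03 to 1.11 in YPD+Cys, 0.92 to 1.05 against snf5 in YPD and 0.95 to 1.02 in YPD+Cys.

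The run held 14 genes at a limit of 0.4, with library totals, without the 3 multimapping libraries and without any 1 wt or snf2 library (14 to 14, the last 2 settings chosen after seeing the data). If a single gene short of the limit ended it, RPS23A did so and 7 genes were left. At a limit of 0.8 it held 0, because SPT6 itself was short of it.

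Counts of members called moved more. In snf2 against wt in YPD, 20 were called, 10 on log2(TPM + 1) and 10 on log2(TPM + 0.1), and 13 to 21 without 1 library each, with 13 without wt YPD replicate 3. In YPD+Cys, 18 became 11 in a fit to the compared groups alone and 13 to 19 without 1 library each. In snf2 against snf5, the 11 calls in each medium became 1 on either TPM scale, 3 in YPD without the 3 multimapping libraries, and 7 to 13 in YPD (7 without snf2 YPD replicate 1 or 2) and 9 to 12 in YPD+Cys without 1 library each. In snf5 against wt, 10 in YPD ranged from 7 to 11 and 9 in YPD+Cys from 5 (without wt YPD+Cys replicate 3) to 10, and became 20 on either TPM scale. In that comparison the median of all genes was itself at 0.73 on log2(TPM + 1) and 0.81 on log2(TPM + 0.1). On those scales VOA1 turned from lower to higher than wt in YPD+Cys, at 0.105 and 0.106 in snf2 and 0.309 and 0.311 in snf5 on log2(TPM + 1) and log2(TPM + 0.1). The shares of all genes called under these settings are not given here, so nothing about the block is read from these counts. The causes of these changes were not tested.

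With the replicate number as a block over all strains, 22 and 20 members were called in snf2 against wt, and the share of all genes is not given here either. The block within strain raised the calls with cysteine from 0 to 3 in wt and from 0 to 1 in snf2, and could not be fitted between strains. Without 1 library each, the calls with cysteine and of the difference in response stayed at 0. Low-count members such as YGR121W-A and YGR107W are limited by depth.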
